A study of Mus musculus with 4 samples.

Results

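Slc17a6, Slc32a1, Gad1 and Gad2 are the 4 genes that most directly set which fast transmitter a neuron of the cerebellar nuclei releases. They were taken by name, and all 4 of the 4 were found among the 15632 genes of the 4 library tables and of a further table that the submitters named vglut2. The data are counts from single nuclei of microdissected deep cerebellar nuclei of C57BL/6J mice, with 1 droplet library per sample and 2 libraries for each of 2 Cre lines. By its title, the study asks how a subset of the glutamatergic neurons there bears on satiation.

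Every sample came from a Cre line crossed to Ai32, a reporter in which Cre switches on channelrhodopsin fused to EYFP, so that no library lacks a Cre or the reporter. Ucn3-Cre replicate 1 came from a female of 3 months with nuclei purified over an iodixanol gradient. Ucn3-Cre replicate 2 came from a male of 3 months with a sucrose cushion. vGluT2-Cre replicate 1 came from a male of 2 months and vGluT2-Cre replicate 2 from a female of 2.5 months, both with the sucrose cushion. The labels do not say how many animals went into a library, so p-values measure the spread between these samples, and age and Cre line cannot be told apart.

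Glutamatergic neurons fill their synaptic vesicles with glutamate through a vesicular glutamate transporter, and Slc17a6 encodes the one called VGLUT2. Inhibitory neurons make GABA from glutamate with glutamate decarboxylase, which exists as GAD67, the product of Gad1, and GAD65, the product of Gad2. The vesicular transporter encoded by Slc32a1 then loads GABA, and also glycine, into vesicles. In the cerebellar nuclei, large glutamatergic neurons project to many brain regions, GABA neurons project to the inferior olive, and local interneurons use GABA, glycine or both.

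Slc17a6 (ENSMUSG00000030500) lies at chr7:51622006-51671119 on the plus strand of GRCm38, and the other 3 genes lie on the plus strand of chromosome 2. Gad2 (ENSMUSG00000026787) spans chr2:22622205-22693874, Gad1 (ENSMUSG00000070880) spans chr2:70553072-70602014 and Slc32a1 (ENSMUSG00000037771) spans chr2:158610767-158615748. Their principal transcripts have 12 exons for Slc17a6, 16 for Gad2, 17 for Gad1 and 2 for Slc32a1. The 250 bases before the RefSeq start of each gene (GRCm38.p6) are shown because the 3 inhibitory genes shared a cell type pattern and Slc17a6 had the opposite one. Capitals mark a GC box (GGGCGG, or its reverse complement) or, in Gad1 only, a TATA box (TATAAA, or its reverse complement).
Slc17a6: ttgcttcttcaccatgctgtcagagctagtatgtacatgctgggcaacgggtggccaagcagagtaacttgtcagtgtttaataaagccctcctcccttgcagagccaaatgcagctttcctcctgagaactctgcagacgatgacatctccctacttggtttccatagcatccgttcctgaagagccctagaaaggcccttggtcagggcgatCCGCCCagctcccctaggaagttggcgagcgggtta
Slc32a1: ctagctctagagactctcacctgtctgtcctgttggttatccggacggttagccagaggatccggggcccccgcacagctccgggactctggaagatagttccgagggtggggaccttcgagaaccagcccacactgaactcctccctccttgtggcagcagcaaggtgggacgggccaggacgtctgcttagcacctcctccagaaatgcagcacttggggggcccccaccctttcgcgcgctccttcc
Gad1: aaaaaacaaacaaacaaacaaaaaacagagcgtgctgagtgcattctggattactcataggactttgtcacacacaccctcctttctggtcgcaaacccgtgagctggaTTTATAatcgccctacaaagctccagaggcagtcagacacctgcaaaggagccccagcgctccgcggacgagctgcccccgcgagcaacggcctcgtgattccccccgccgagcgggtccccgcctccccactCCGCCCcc
Gad2: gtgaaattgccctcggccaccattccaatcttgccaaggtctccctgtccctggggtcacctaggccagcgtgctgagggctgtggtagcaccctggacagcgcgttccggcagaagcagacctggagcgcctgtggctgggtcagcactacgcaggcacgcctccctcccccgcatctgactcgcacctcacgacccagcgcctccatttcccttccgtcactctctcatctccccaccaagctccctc
These windows are chr7:51621580-51621829, chr2:158610508-158610757, chr2:70561879-70562128 and chr2:22622077-22622326, all on the plus strand, and RefSeq lists 2 starts for Slc17a6, of which the first was used. GENCODE and RefSeq place some starts differently: the windows of Gad1 and Gad2 lie wholly or partly inside the GENCODE spans given above, since GENCODE also lists transcripts that start upstream. On both strands, a GC box was found in the windows of Slc17a6 and Gad1 and in 32.7% of 32851 promoters of the same length. The TATA box of Gad1 was matched in 12.4% of promoters. The E-box CAGCTG (13% of promoters) and the homeodomain core TAATTA (4.84%) matched none of these 4 windows. GC content was 53.2% for Slc17a6, 62.4% for Slc32a1, 58.0% for Gad1 and 64.0% for Gad2, beside a median of 52.4% over all promoters.

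The 4 library tables held 21494 nuclei with between 9096357 and 19125488 counts per library. After 947 nuclei with the highest doublet scores were removed, 20547 nuclei fell into 17 clusters, which were named from marker genes that include none of the 4 genes described here. The 4 genes and the transmitter pathway genes were also kept out of the genes used for clustering. A cluster of 542 nuclei was glutamatergic nuclear neuron-like (glutamatergic in what follows), and clusters 9 and 16, with 1093 nuclei, were inhibitory nuclear or Golgi neuron-like (inhibitory). The summed markers of glutamatergic nuclear neurons, 11 of 13 of which were in the files, reached 1735 to 2044 CPM (counts per 1000000 counts of the summed nuclei) in the glutamatergic nuclei and 253 to 391 CPM in the inhibitory nuclei. Inhibitory markers, 12 of 12 in the files, summed to 1343 to 1516 CPM in inhibitory and 381 to 594 CPM in glutamatergic nuclei. Cluster 16 scored almost equally as molecular layer interneuron-like (1.216 against 1.209 on the marker score). Across libraries, 41 cell barcodes occurred in more than 1 library. All cell classes below are "-like" in this sense.

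Slc17a6 was high in the glutamatergic class and low in every other class. Summed over the nuclei of each library, it measured 148.6, 187.8, 222.8 and 242.4 CPM in the glutamatergic nuclei of Ucn3-Cre replicates 1 and 2 and vGluT2-Cre replicates 1 and 2. In the inhibitory nuclei of the same libraries it measured 18.98, 18.79, 15.25 and 15.23 CPM. The lowest glutamatergic library therefore stood above every library of the other 8 classes with at least 20 nuclei in each library, the highest of which was microglia at 58.8 CPM. Fibroblasts, with 17 to 22 nuclei per library, reached 75.9 CPM in Ucn3-Cre replicate 2, from fewer than 3 counts, and are left out of the order of classes. The class means ran from 200 ± 41.3 CPM in glutamatergic nuclei (SD, n = 4 libraries) to 40.9 ± 6.64 in endothelial cells and 17.1 ± 2.11 in inhibitory nuclei, and apart from the first step every pair of neighbours in this order overlapped. Oligodendrocytes, which are not known as glutamatergic cells, held 11.9 CPM in Ucn3-Cre replicate 1 and 46.3, 21.1 and 34.1 CPM in the other libraries. The inhibitory nuclei had the lowest class mean, within the range of the oligodendrocyte libraries.

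The 3 inhibitory genes were each high in the inhibitory nuclei and in the 244 nuclei that were molecular layer interneuron-like. The vesicular transporter Slc32a1 measured 198.6, 276.4, 196.1 and 275.6 CPM in inhibitory nuclei, in the library order given above, and 8.8, 16.3, 26.3 and 34.1 CPM in glutamatergic nuclei. The 2 ranges did not overlap. Gad1 measured 182.9, 231, 300.3 and 274.9 CPM in inhibitory and 12.02, 14.0, 38.1 and 20.7 CPM in glutamatergic nuclei. Gad2 measured 405, 422, 485 and 492 CPM in inhibitory and 40.0, 21.4, 70.3 and 44.6 CPM in glutamatergic nuclei. For Gad1 and Gad2 too, no glutamatergic library reached any inhibitory library, and within the glutamatergic class the vGluT2-Cre libraries gave the upper values of all 3 genes.

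In molecular layer interneurons the means were 244 ± 57.5 CPM for Slc32a1, 336 ± 74.9 for Gad1 and 314 ± 87.2 for Gad2 (SD, n = 4). Below the inhibitory classes came mural cells for Slc32a1 (24.4 ± 8.51 CPM), oligodendrocyte precursors for Gad1 (58.1 ± 12.2) and the glutamatergic class for Gad2 (44.1 ± 20.2). Without glutamatergic sub-clusters 1, 4 and 6, described below and picked after their values were seen, Gad2 measured 18.6, 11.4, 13.7 and 9.41 CPM in that class. In oligodendrocytes the level was 7.40 ± 3.46 CPM for Slc32a1, 10.4 ± 3.06 for Gad1 and 9.06 ± 2.80 for Gad2. Neighbouring classes in the lower part of each order overlapped, with the plot of CPM by class and library showing the gap between the 2 inhibitory classes and the rest.

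**Figure D1:**
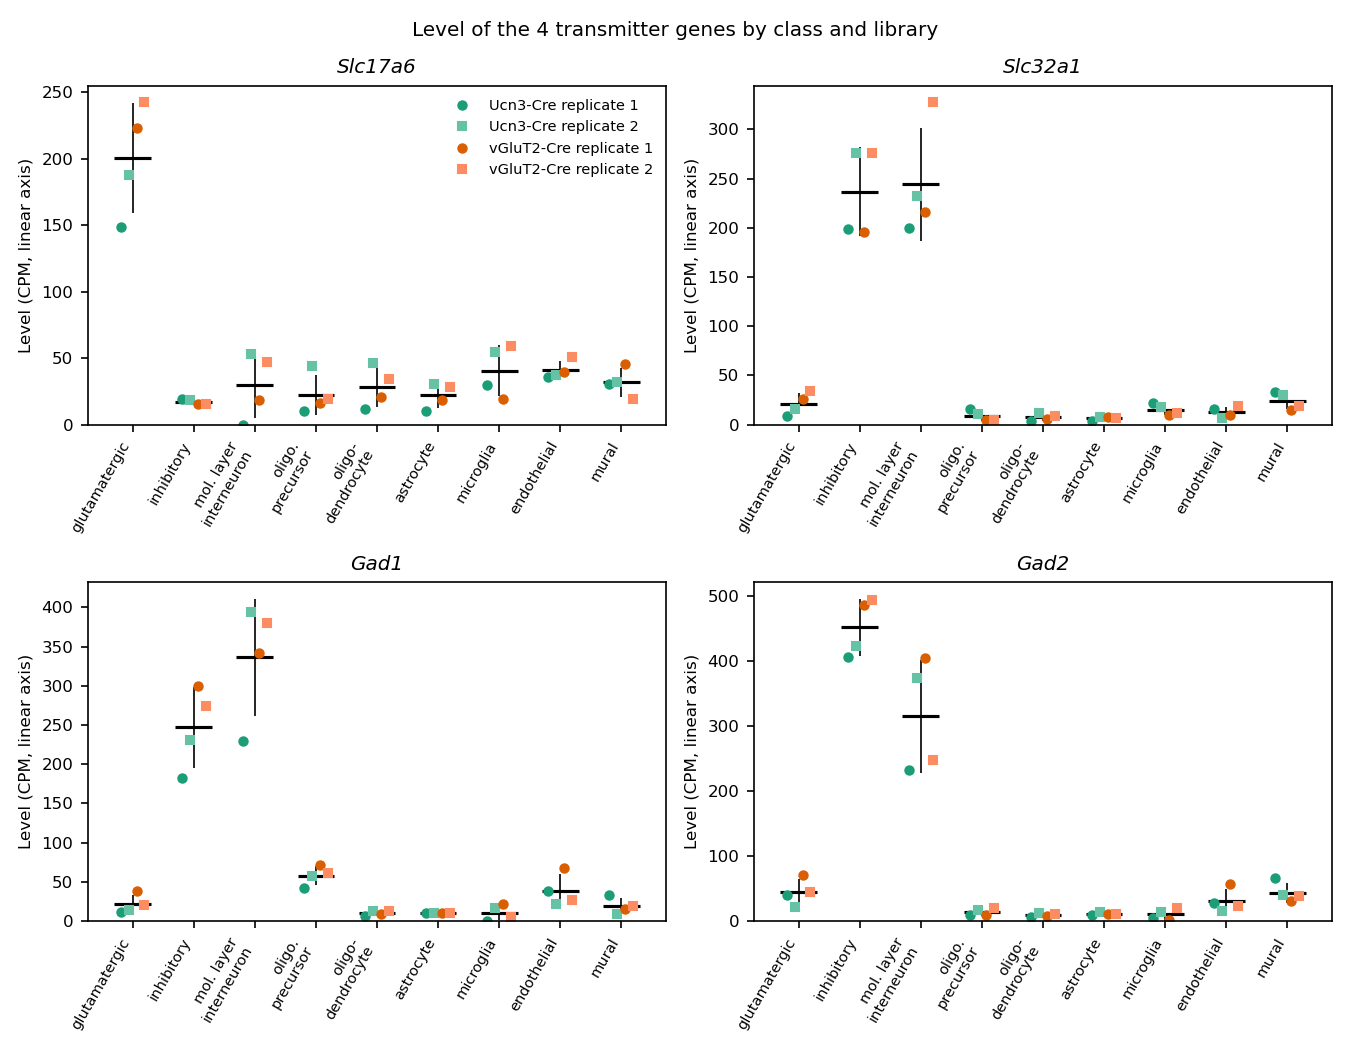
Level of each gene in CPM (linear axis) by cell class; each point is 1 library, the horizontal bar is the mean and the vertical line is the SD over 4 libraries. Slc17a6 stands at 149 to 242 CPM in glutamatergic nuclei and below 60 CPM in the other classes drawn (fibroblasts are left out), whereas Slc32a1, Gad1 and Gad2 are highest in the 2 inhibitory classes and Gad1 has a smaller rise in oligodendrocyte precursors.

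All 4 genes differed between glutamatergic and inhibitory nuclei in edgeR's quasi-likelihood test on counts summed per library and class, with library as a block. The test called 4 of 4, beside 32.2% of 10985 genes tested (3536 genes, 1848 higher and 1688 lower in glutamatergic nuclei). Slc17a6 was 13.2-fold higher in glutamatergic nuclei (log2 fold change 3.72, SE 0.13, adjusted p = 7.46e-19 in edgeR). Slc32a1 had a log2 fold change of -3.28 (SE 0.14, adjusted p = 8.51e-17 in edgeR), Gad1 -3.41 (SE 0.13) and Gad2 -3.26 (SE 0.13). Each direction was seen in 4 of 4 libraries. The inhibitory genes' differences were larger without 3 glutamatergic sub-clusters described below. Without sub-clusters 1, 4 and 6, picked after their values were seen, the log2 fold changes were 3.88 for Slc17a6, -5.22 for Slc32a1, -4.83 for Gad1 and -5.08 for Gad2.

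Molecular layer interneurons, which are among the GABA neurons of the cerebellar cortex, differed from the inhibitory nuclei in Gad1 and Gad2, by small amounts. Against the inhibitory nuclei, edgeR called 2 of the 3 genes tested, beside 21.9% of 8085 genes. Gad1 was higher (log2 fold change 0.41, SE 0.14, adjusted p = 0.0259) and Gad2 lower (-0.49, SE 0.14, adjusted p = 0.00535), while Slc32a1 differed by 0.01 (95% interval -0.29 to 0.31, adjusted p = 0.98). Slc17a6 did not reach the count filter. DESeq2 called neither Gad1 (adjusted p = 0.232) nor Gad2 (adjusted p = 0.0599). Leaving out vGluT2-Cre replicate 2 ended both calls, leaving out Ucn3-Cre replicate 2 ended that of Gad1, and so did leaving out cluster 16, an alternative chosen after seeing the data (log2 fold change 0.21). Of the summed counts of the 4 genes, Gad1 gave 36.2 ± 1.71% in molecular layer interneurons and 25.8 ± 3.18% in inhibitory nuclei, and Gad2 gave 34.1 ± 6.89% and 47.5 ± 2.52% (SD, n = 4).

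Among the glia, Gad1 was higher in oligodendrocyte precursors, the proliferating cells that give rise to oligodendrocytes. It measured 42.2, 57.5, 71.7 and 60.9 CPM in the 692 precursor nuclei, again in the library order above, and every library was above the highest oligodendrocyte library (13.3 CPM). A comparison of precursors with oligodendrocytes, added after these levels were seen, gave a 5.37-fold difference for Gad1 (log2 2.42, SE 0.21, adjusted p = 1.31e-08 in edgeR, higher in 4 of 4 libraries). That comparison called 50.1% of 10975 genes and 1 of the 4 genes described here, Gad1. Gad2 differed by 0.60 (95% interval -0.05 to 1.26, adjusted p = 0.116 in edgeR), Slc32a1 by 0.03 and Slc17a6 by -0.41. Of 154 precursor nuclei with any of the 3 inhibitory genes, 115 held Gad1 and 104 held Gad1 alone, whereas 332 of 839 such oligodendrocytes held Gad1. The markers of molecular layer interneurons summed to 3947 to 4586 CPM in the precursors and 1043 to 1303 CPM in oligodendrocytes, and their part in the result was not tested.

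A nucleus counted as positive for a gene if it held at least 1 count after rounding. Slc17a6 was found in 61.4%, 79.1%, 77.8% and 86.2% of glutamatergic nuclei, with exact 95% intervals from 51.2% to 70.9% in the lowest library and from 77.5% to 92.4% in the highest. In inhibitory nuclei 97.3 ± 2.3% held at least 1 of the 3 inhibitory genes (SD, n = 4), and 513 of 1066 positive nuclei held all 3. These shares depend on depth: the median count per nucleus ran from 6835 to 15405 over libraries in glutamatergic nuclei, from 3869 to 7852 in inhibitory nuclei and from 1513 to 2870 in oligodendrocytes. Each nucleus was therefore also thinned to 1000 counts, which every nucleus reached.

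At full depth, 29.9 ± 2.96% of glutamatergic nuclei held an inhibitory gene, against 7.28 ± 3.49% of oligodendrocytes. Thinned to equal depth, the shares were 9.57 ± 3.29% and 3.43 ± 1.16%, a difference of 6.14 percentage points that was positive in 4 of 4 libraries (exact two-sided sign-flip permutation test, p = 0.13, the smallest that 4 libraries allow). Nuclei of the 8 glutamatergic sub-clusters other than 1, 4 and 6 had a thinned share of 3.86 ± 1.72%, 0.433 percentage points above the oligodendrocytes (3 of 4 libraries). Those 3 sub-clusters were picked after their values were seen, and at full depth the difference without them was 12.4 percentage points.

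Slc17a6 was found in 8.71 ± 2.20% of inhibitory nuclei and 7.13 ± 4.06% of oligodendrocytes at full depth. After thinning the shares were 1.50 ± 0.773% and 3.28 ± 1.75%, lower in inhibitory nuclei in 3 of 4 libraries (exact two-sided sign-flip permutation test, p = 0.25). At 2 or more counts and full depth the shares were 1.20 ± 0.191% and 0.612 ± 0.509%, higher in inhibitory nuclei in 4 of 4 libraries, which differ in depth as given above. Of the 91 inhibitory nuclei that held Slc17a6 with an inhibitory gene, 78 held exactly 1 Slc17a6 count.

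Slc17a6 and an inhibitory gene were found together in 97 of 542 glutamatergic nuclei, while 318 held Slc17a6 only, 68 an inhibitory gene only and 59 neither. By library the share with both was 17.8 ± 3.06% at full depth, against 0.708 ± 0.656% of oligodendrocytes. At 1000 counts it was 0.938 ± 0.893%, from 4 nuclei, against 0.117 ± 0.0677%, a difference of 0.821 percentage points (positive in 3 of 4 libraries, exact two-sided sign-flip permutation test, p = 0.25). With 4 libraries this test cannot pass 0.05 whatever the values. At 2000 counts, which 6237 of the 11189 oligodendrocytes and all glutamatergic nuclei reached, the shares were 1.85 ± 1.06% and 0.502 ± 0.458%. Independent detection would give the product of the share with Slc17a6 and the share with an inhibitory gene. In glutamatergic nuclei this product was 22.9 ± 4.53% at full depth and 2.00 ± 1.09% at 1000 counts, above the share with both. In oligodendrocytes it was 0.623 ± 0.522% and 0.127 ± 0.100%, close to the share with both. In 67 of the 97 nuclei the inhibitory genes together amounted to exactly 1 count, and when at least 2 counts were asked of Slc17a6 and of an inhibitory gene, 10 nuclei were left, 4 of them in sub-cluster 4, which is led by oligodendrocyte genes. By library these were 1.98 ± 1.05% of glutamatergic nuclei, against 0.016 ± 0.0185% of oligodendrocytes (2 of 11189). These 2-count shares are at full depth, at which the classes differ as given above, and were not compared at equal depth. The product of the single shares at 2 or more counts was 8.42 ± 5.56% in glutamatergic nuclei and 0.00182 ± 0.00165% in oligodendrocytes. Endothelial cells, which are not neurons, had both in 3.33 ± 2.12% of nuclei at full depth and in 0.899 ± 0.486% after thinning, close to the thinned glutamatergic share.

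**Figure D2:**
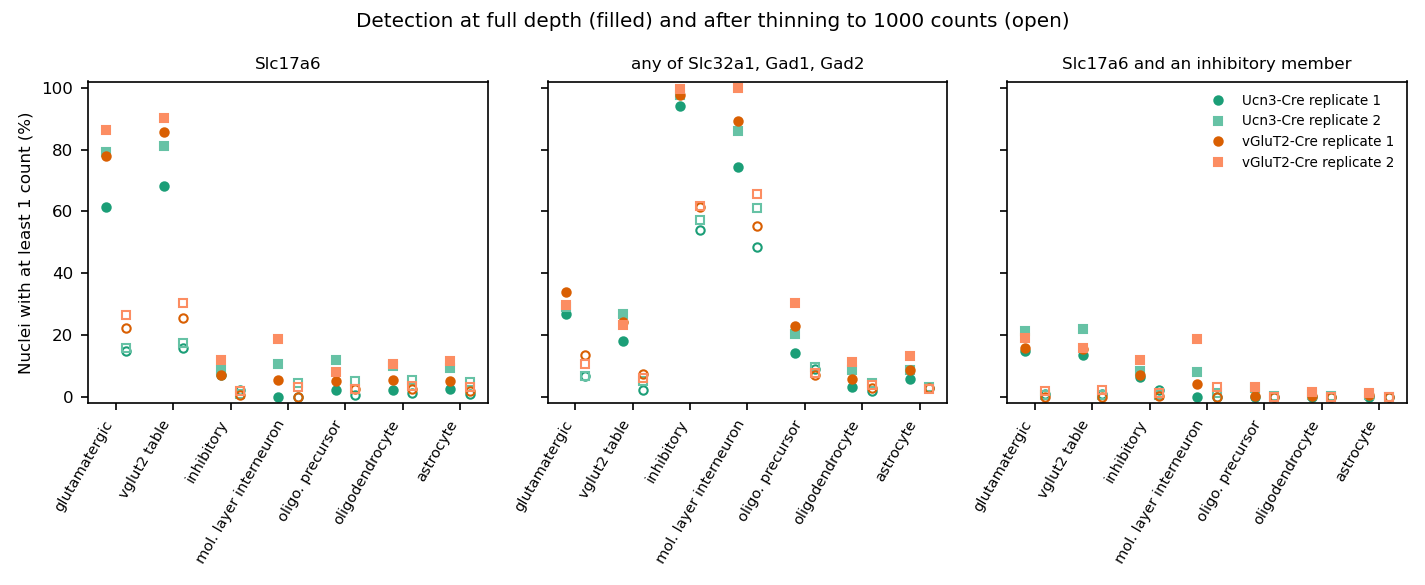
Share of nuclei (%) with Slc17a6, with an inhibitory gene, and with both, by class; filled points are shares at full depth and open points shares after thinning each nucleus to 1000 counts, 1 point per library. Glutamatergic nuclei with both genes fall from 17.8% on average at full depth to 0.938% at equal depth, whereas inhibitory genes stay above 48% of nuclei in the 2 inhibitory classes after thinning.

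Within the glutamatergic class, the 4 genes separated some of the 11 sub-clusters, which had been found without them. In edgeR's test over sub-clusters all 4 were called, beside 30.4% of 5368 genes tested. Sub-cluster 6 (44 nuclei, led by Pax2, Megf11, Adarb2, Tfap2b and Gm26688, and with the glycine transporter Slc6a5 among its 10 leading genes) had the inhibitory pattern. Its means were 13.4 ± 21.5 CPM for Slc17a6, 159 ± 61.1 for Slc32a1, 127 ± 84.2 for Gad1 and 367 ± 108 for Gad2 (SD, n = 4). Of its nuclei 37 held an inhibitory gene only (84.1%, exact 95% interval 69.9 to 93.4%), 5 held both and 2 neither. Sub-cluster 6 lay inside the glutamatergic cluster by its other genes, but its transmitter genes and Pax2, a transcription factor of cerebellar inhibitory interneurons, go against that name.

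Sub-cluster 1 (31 nuclei, led by Zfhx3, Zfhx4, Galntl6, 2700069I18Rik and Col11a1) held both kinds of nuclei. Its summed levels in the 4 libraries were 0, 158, 183 and 113 CPM for Slc17a6 and 296, 120, 193 and 330 CPM for Gad2. The zero came from the 5 nuclei of Ucn3-Cre replicate 1, and the other libraries lay below the highest 2 libraries of the whole class. Per nucleus, there were 8 nuclei with Slc17a6 only, 17 with an inhibitory gene only, 5 with both and 1 with neither. The inhibitory-only share was 54.8% (exact 95% interval 36.0 to 72.7%), and 13 nuclei held 3 or more inhibitory counts with no Slc17a6. Both at 2 or more counts were found in 0 of 31 nuclei, which allows up to 9.68% of nuclei with such counts and sets no limit on nuclei that express both. The summed level of sub-cluster 1 therefore combined nuclei with Slc17a6 and nuclei with inhibitory genes.

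Sub-clusters 1 and 6 held 54 of the 68 glutamatergic nuclei that had an inhibitory gene and no Slc17a6 (79.4%), with 75 of 542 nuclei (13.8%). Sub-cluster 4 (37 nuclei) was led by Prr5l, St18, Neat1 and Aspa, genes of oligodendrocytes, at a median of 15696 counts per nucleus. It held 22 nuclei with Slc17a6 only, 12 with both and 2 with an inhibitory gene only, and its Slc17a6 level was 158 ± 62.2 CPM.

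**Figure D3:**
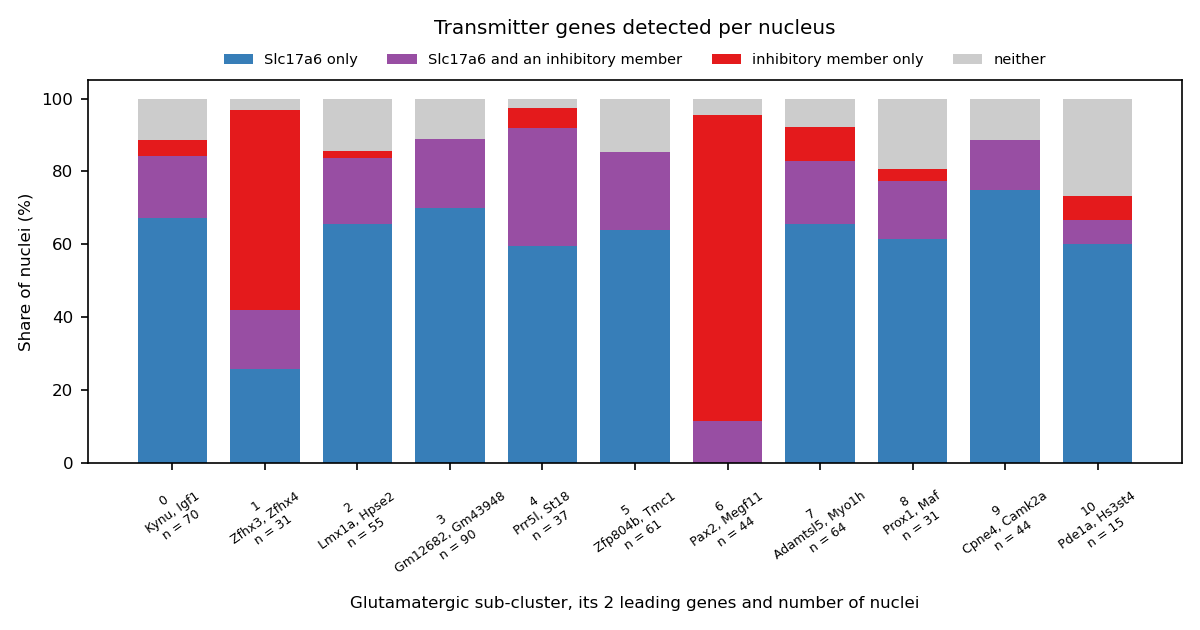
Share of nuclei (%) in each glutamatergic sub-cluster that held Slc17a6 only, Slc17a6 with an inhibitory gene, an inhibitory gene only, or neither, at full depth, over all 4 libraries. Sub-clusters 1 and 6 are mostly inhibitory-only (54.8% and 84.1%), whereas the other sub-clusters are mostly Slc17a6 only.

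In the other 8 sub-clusters, which differ in genes such as Kynu, Lmx1a, Crhr1, Zfp804b, Adamtsl5, Prox1, Cpne4 and Pde1a, Slc17a6 was the one of the 4 genes with enough counts to be tested. Mean Slc17a6 lay between 186 ± 37.6 CPM in sub-cluster 7 (n = 4) and 336 ± 230 CPM in sub-cluster 10 (n = 2 libraries with at least 5 nuclei). Without sub-clusters 1, 4 and 6, edgeR did not call Slc17a6 among the rest, which does not show that its level is equal in them. Sub-clusters 1 and 6 were picked for their inhibitory genes and sub-cluster 4 for its oligodendrocyte genes and share with both, so low levels of these genes in the other 8 follow from the choice. Of the 430 nuclei 288 held Slc17a6 only, 75 both, 12 an inhibitory gene only and 55 neither. By library the share with both was 14.3%, 22.9%, 16.4% and 13.3% (exact 95% intervals from 7.61 to 23.6%, 16.02 to 31.1%, 10.7 to 23.6% and 6.58 to 23.2%), and these intervals overlapped. In 65 of the 75 nuclei only 1 of the 3 inhibitory genes was present, and 58 held exactly 1 inhibitory count. By contrast, 158 of 1066 positive inhibitory nuclei held only 1 of the 3 genes.

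**Figure D4:**
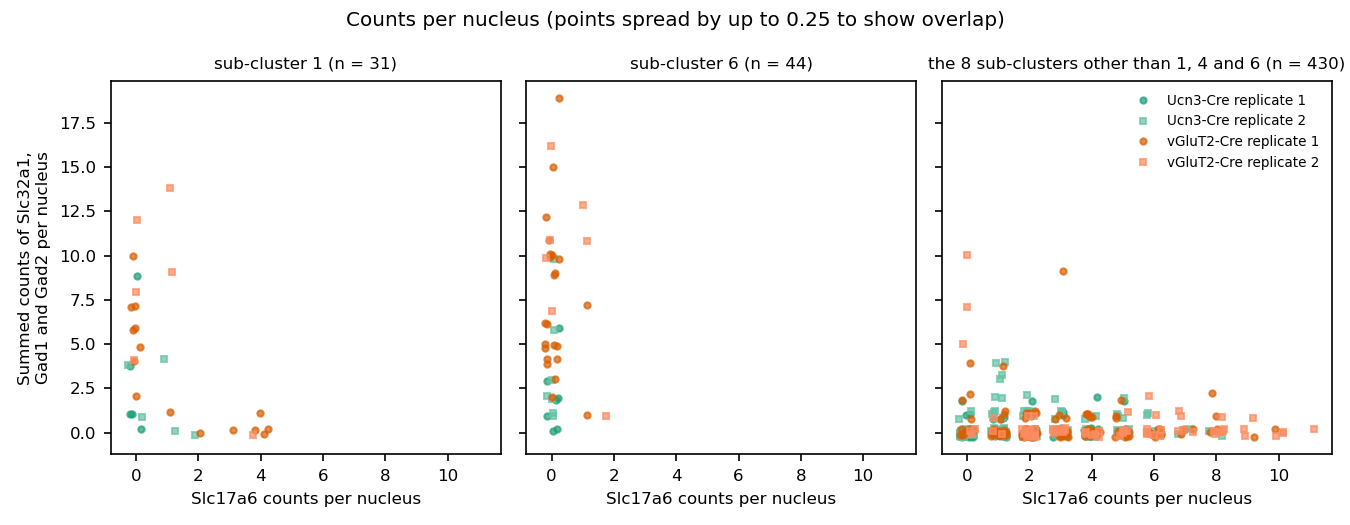
Slc17a6 counts (x axis) and summed Slc32a1, Gad1 and Gad2 counts (y axis) of single glutamatergic nuclei, coloured by library and spread by up to 0.25 counts. In sub-clusters 1 and 6 most points lie on an axis (5 nuclei in each hold both), with up to 14 and 19 inhibitory counts, and in the other 8 sub-clusters most points lie at 0 or 1 inhibitory count while Slc17a6 reaches 11 counts and the inhibitory genes 10.

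The inhibitory nuclei also varied among themselves. In a test over their sub-clusters, edgeR called the 3 inhibitory genes, beside 34.1% of 8555 genes tested. Inhibitory sub-cluster 6, led by the oligodendrocyte genes Prr5l, St18 and Aspa, entered from 1 library. It had the lowest Slc32a1, Gad1 and Gad2 of those tested (96.5, 24.8 and 203 CPM). Inhibitory sub-clusters 1 and 8 had the granule cell markers Gabra6, Reln and Etv1 among their 10 leading genes. The part of these sub-clusters in the calls was not tested. Without the sums of cluster 16, likewise chosen after seeing the data, Gad2 alone was called. Gad1 was highest in a sub-cluster led by 4930555F03Rik, Cdh9, C130073E24Rik, Gm45323 and Grm8 (337 ± 84.2 CPM, from 242 to 437 by library). It was lower in one led by Slc6a5, Sv2c, 5033421B08Rik, Spink13 and Tfap2b (194 ± 32.0 CPM, from 156 to 228). Inhibitory sub-cluster 8 had a lower mean still (137 ± 131 CPM, n = 3 libraries). The first of these was picked for its value, so the gap between them is a description. In the Slc6a5-led sub-cluster, Gad2 was at 494 ± 66.5 CPM and Slc32a1 at 229 ± 59.4 CPM, and 135 of its 146 nuclei held an inhibitory gene without Slc17a6. Among the sub-clusters with at least 5 nuclei in each of the 4 libraries, Gad2 was lowest in one led by Fam19a2, Il1rapl2, Npsr1 and Foxp2 (330 ± 25.7 CPM), in which Gad1 was 297 ± 39.6 CPM. Gad1os, an antisense transcript at chr2:70489940-70563357 that overlaps the 5′ part of Gad1, reached 0, 36.1, 51.4 and 34.8 CPM in inhibitory nuclei. Whether the counting used strand is not given in the sources used here, so reads from the overlap may have been counted for either gene.

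The deposited vglut2 table held 480 nuclei (88, 149, 161 and 82 per library), and its values matched the library tables exactly. How its nuclei were chosen is not given in the sources used here, so its Slc17a6 values are a description. It contained 470 of the 542 glutamatergic nuclei, 9 nuclei removed as doublets and 1 inhibitory nucleus. Slc17a6 was found in 393 of the 480 (81.9%), and 31 held an inhibitory gene only. None of sub-cluster 6 was in it, whereas 28 of 31 nuclei of sub-cluster 1 and 15 of 37 of sub-cluster 4 were. Of the 28, 14 held an inhibitory gene only (50.0%, exact 95% interval 30.6 to 69.4%), against 17 of the 452 table nuclei outside sub-cluster 1 (3.76%, 2.21 to 5.95%). After thinning, 5.30 ± 2.19% of table nuclei held an inhibitory gene, 1.87 percentage points above oligodendrocytes and higher in 4 of 4 libraries.

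The Cre lines and the sexes gave no call for any of the 4 genes. Between Ucn3-Cre and vGluT2-Cre libraries, 2 of each, edgeR called 0 of the 4 genes over all nuclei (0% of 13795 genes, with 486 at an unadjusted p under 0.05), in glutamatergic nuclei (0% of 11072, with 292) and in inhibitory nuclei (0% of 11140, with 310). DESeq2 called 238, 4 and 5 genes in these comparisons and none of the 4. In glutamatergic nuclei all 4 genes were lower in the Ucn3-Cre libraries. Slc17a6 averaged 168 ± 27.8 CPM there and 233 ± 13.9 CPM in vGluT2-Cre libraries (log2 fold change -0.41, SE 0.19), Slc32a1 12.6 ± 5.29 and 30.2 ± 5.52 CPM (-1.17, SE 0.39), Gad1 13 ± 1.4 and 29.4 ± 12.3 CPM (-1.12, SE 0.39) and Gad2 30.7 ± 13.1 and 57.5 ± 18.2 CPM (-0.93, SE 0.38), each with an adjusted p of 1.00 in edgeR. The values of the 2 lines did not overlap for any of the 4, and for Gad2 the gap was between 40.0 and 44.6 CPM. How many of all genes separate 2 against 2 libraries in this way was not counted, so no line effect is read from it.

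The share of sub-cluster 6 was highest in the library with the highest Gad1 and Gad2. Sub-cluster 6 gave 7 of 101 and 7 of 158 glutamatergic nuclei in the Ucn3-Cre libraries and 23 of 189 and 7 of 94 in the vGluT2-Cre libraries. Without sub-cluster 6, an alternative chosen after seeing the data, the line difference was -0.46 for Slc17a6, -0.85 for Slc32a1, -0.35 for Gad1 and -0.21 for Gad2. Without sub-clusters 1, 4 and 6 it was -0.45 for Slc17a6, -0.12 for Gad1 and 0.39 for Gad2, and Slc32a1 did not reach the count filter. The part of these sub-clusters in the line difference was not tested. The line effect was not shown to differ between glutamatergic and inhibitory nuclei (interaction -1.20, adjusted p = 0.15 in edgeR for Slc32a1, the smallest of the 4). All 4 interactions were negative, from -0.67 for Slc17a6 to -1.20 for Slc32a1. Of 10985 genes tested 8 were called, none of them among the 4. Between females and males 0 of the 4 genes were called in any of the 3 sets of nuclei. Over all nuclei 0% of genes were called (450 at an unadjusted p under 0.05, 199 called by DESeq2). In glutamatergic nuclei 0.00903% and in inhibitory nuclei 0.00898% were called, which was 1 gene each, Xist, the noncoding RNA of X inactivation, named here after its value was seen.

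Genes that supply glutamate to Slc17a6 or clear GABA and glycine followed the 4 genes only in part. Of 16 glutamate supply genes fixed for this description, 14 were in the files and 13 were tested between glutamatergic and inhibitory nuclei. Of these, 3 were higher in glutamatergic nuclei, 5 were lower and 5 were not called, beside 32.2% of all genes called in this comparison, with a median log2 fold change of 0.02 beside -0.01 over all genes. Those that were higher included Slc1a1, the neuronal glutamate uptake carrier (111 ± 16.9 against 75.9 ± 5.13 CPM, log2 0.65), and Glud1, glutamate dehydrogenase (132 ± 8.96 against 111 ± 6.78 CPM, log2 0.34). Both were higher in 4 of 4 libraries. Slc17a7, which encodes VGLUT1, the transporter of granule cells, was at 5.14 ± 1.65 CPM in glutamatergic and 9.30 ± 2.39 CPM in inhibitory nuclei and was not called (log2 -0.65, adjusted p = 0.124 in edgeR). Slc17a8 was not analysed here.

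Of 14 genes of GABA and glycine supply and clearance, 10 were tested, of which 6 were lower in glutamatergic nuclei, 1 was higher and 3 were not called. This stood beside 32.2% of all genes called, and the median log2 fold change was -0.50 beside -0.01 over all genes. The lower ones included Gldc, of the glycine cleavage system (3.73 ± 2.38 against 23.8 ± 5.67 CPM, log2 -2.73, SE 0.31). Slc6a5, the neuronal glycine carrier, was at 27.2 ± 13.3 against 88.4 ± 8.87 CPM (log2 -1.497, SE 0.15), and Slc6a11, a GABA carrier best known in astrocytes, had a log2 fold change of -1.28. These 3 were lower in 4 of 4 libraries. Slc6a5 is among the markers that named the inhibitory class, so its difference is no separate evidence. None of the 4 listed genes for other transmitters that were in the files had enough counts to be tested.

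The pattern of each gene over 36 sums (9 classes in 4 libraries) was compared with that of 12841 genes as log2(CPM + 1), as a description. The sums of a library share its depth and those of a class share its cells. The inhibitory genes were nearest to each other for Slc32a1 and Gad2 (Pearson's r = 0.921). After Gad2, Slc32a1 was closest to Tfap2a, Lhx5, Gm26688 and Slc12a5, at r from 0.886 to 0.859. Gad2 was next closest to Cabp1, Ndn, Tmem178 and Gm27199 (0.882 to 0.867). Gad1 had Tmem178 (0.87), Rab3c, Cnr1, Tmem59l and Slc16a11 before any of the other 3 genes, and its r with Slc32a1 was 0.76. Slc17a6 was closest to C1ql3 (0.785), Thy1 (0.766), Nrn1, BC005624 and Vps29, and its r with the inhibitory genes ran from -0.257 to -0.102.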

How the data were processed

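The deposited values are expected counts per gene and nucleus: most lie slightly below whole numbers (97.2 to 98.8% of values above 0 within 0.5 below one, by library), and the step that made them so is not given in the sources used here. Cell Ranger 3.1.0, Seurat 3.2 and build mm10 are named per the submitters' processing notes. Every deposited nucleus held at least 1000 counts and passed a minimum of 200 genes. Scrublet marked 42 of 21494 nuclei (0.195%), too few to have worked, so top-scoring nuclei were removed at 0.8% per 1000 nuclei of a library (947 in all). Nuclei were clustered with scanpy 1.11.5 (2000 variable genes, 30 components, 15 neighbours, Leiden resolution 1.0, sub-clusters at 0.5) and named from marker lists. A name needed at least 3 detected markers. Purkinje and granule cell markers named no cluster.

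Values were rounded and summed per library and class. CPM divides a sum by the total of its nuclei, times 1e6. Sums of at least 20 nuclei (sub-clusters 5) were tested with edgeR 4.0.16 (quasi-likelihood, TMM, filterByExpr, Benjamini-Hochberg over all genes, threshold 0.05), which was tested on simulated data, with DESeq2 1.42.0 as an alternative. The library is the replicate. Shares carry exact Clopper-Pearson 95% intervals, which, like the limits from 3 counts, cover counting error only. The 4 genes, the lists and the naming rule (pathway genes with the 4 largest called changes in each direction seen in 4 of 4 libraries, 5 leading genes per neuronal sub-cluster, 5 most alike genes per member) were chosen with earlier results of these data known. GENCODE and RefSeq gave positions and promoters. Alternatives were other tools, filters, depths, detection rules, clusterings and each library left out. Some genes that this rule names are not reported here.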

Additional observations from a re-analysis of the deposited data

How the results depend on the processing

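The 4 calls between glutamatergic and inhibitory nuclei stayed under every alternative run. The inhibitory nuclei with Slc17a6 went from below to above oligodendrocytes without thinning (1.58 percentage points), with any value above 0 (1.36) and with at least 2 counts (0.593). Against inhibitory nuclei, molecular layer interneurons had 0 of 3 genes called by DESeq2 and without a library block, 1 without the count filter and 1 without cluster 16, and 0 to 3 when 1 library was left out. Slc32a1 there turned to -0.0052 (DESeq2), -0.0661 (no filter) and ranged from -0.0645 to 0.115 with 1 library left out (-0.0636 without vGluT2-Cre replicate 2). Settings without cluster 16, without sub-cluster 6 and without sub-clusters 1, 4 and 6 were chosen after seeing the data. Of the 4 genes, 0 were called among glutamatergic sub-clusters without sub-clusters 1, 4 and 6, where Slc17a6 alone had enough counts. Among inhibitory sub-clusters 1 of the 4, Gad2, was called without cluster 16. Gad2 between lines in glutamatergic nuclei turned to 0.39 without sub-clusters 1, 4 and 6. Slc32a1 in precursors against oligodendrocytes turned to -0.0378 without the filter, -0.0293 with doublets kept and ranged from -0.37 (without Ucn3-Cre replicate 1) to 0.41 with 1 library left out. The cause of these shifts was not tested.

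Genes called fell from 3536 to 1770 (DESeq2) and 1612 (no library block) between glutamatergic and inhibitory nuclei, from 1769 to 1080 (DESeq2) for molecular layer interneurons, and from 2914 to 479 without cluster 16 among inhibitory sub-clusters. For the lines they went from 0 to 238, 4 and 5 with DESeq2 (all, glutamatergic and inhibitory nuclei) and to 10 and 25 in the latter 2 without vGluT2-Cre replicate 2. For sex, DESeq2 called 199, 9 and 15, the fit without a filter 5 and 6 in the 2 classes, single left-out libraries gave from 0 to 5, the inhibitory nuclei without cluster 16 gave 6, and Cre line as a block gave 0 in both classes. Same-numbered libraries of the lines deviated together with r = 0.026 over 2 pairs and 13795 genes. With 2 libraries per line both pairs give the same value, so this cannot show whether the numbers pair the libraries. The nucleus labels of both replicate 2 libraries carry the same number, whose meaning is not given in the sources used here. With replicate as a block 0 genes of the 4 were called between lines, in all 3 sets of nuclei. Glial depth (medians of 1513 to 2870 counts) limits the co-detection shares, and where a library was left out of a 2-library group the lone library is assumed to vary like the others.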

Other observations

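The reporter gene listed as YFP was not limited to nuclei with Slc17a6. In the vGluT2-Cre libraries, whose Cre is driven by the Slc17a6 locus, it averaged 44.4 ± 10.0 CPM in glutamatergic nuclei, 121 ± 0.243 in astrocytes and 144 ± 62.5 in endothelial cells (SD, n = 2). In the Ucn3-Cre libraries the values were 16.1 ± 2.11, 42.7 ± 7.11 and 65.7 ± 15.99 CPM. Within glutamatergic nuclei, YFP was found in 58 of 147 nuclei with Slc17a6 and 9 of 42 without in vGluT2-Cre replicate 1, and in 36 of 81 and 4 of 13 in replicate 2. The Ucn3-Cre libraries had the same direction, with 10 of 62 and 3 of 39 in replicate 1 and 26 of 125 and 3 of 33 in replicate 2. Nuclei with Slc17a6 were deeper (median 10376 against 8703 counts in vGluT2-Cre replicate 1), and the part of depth was not tested.

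Sub-cluster 7 of the glutamatergic nuclei (64 nuclei, led by Adamtsl5, Myo1h, Sapcd1, P2rx6 and Hs6st3) held the glycine carrier Slc6a5 in 8 nuclei, 7 of them at 2 or more counts and 1 at 15 counts. Slc17a6 was present in 3 of the 8. The sub-cluster's Slc6a5 level was 51.8 ± 41.9 CPM (SD, n = 4), beside 220 ± 23.2 CPM in sub-cluster 6. None of its 11 nuclei in Ucn3-Cre replicate 1 held Slc6a5. The gene was also found in 5 of 31 nuclei of sub-cluster 1 and 4 of 37 of sub-cluster 4, with 1 nucleus in each at 2 or more counts. Sub-cluster 7 was singled out after its values were seen.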
